A study of Mus musculus with 9 samples.

Results

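The genes described here encode the proteins of the cytosolic ribosome. They were taken by symbol: Rpl or Rps, a number and at most 1 of the letters a, l or x, together with Rplp0, Rplp1, Rplp2, Rpsa and Fau. The pattern found 84 symbols, of which 3 (Rps4l, Rpl32l and Rpl6l) are pseudogenes in GENCODE M21 and were set aside. That left 81 of the 54838 genes in the count files, 49 of the large subunit (its P stalk included) and 32 of the small subunit. The choice went by symbol and annotation alone, though earlier results of these data were known when it was made.

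RNA sequencing covered 9 mouse libraries in 4 groups: 3 of untreated B16F10, 3 of B16F10 given HOCl, 2 of untreated CD8+ T cells and 1 of CD8+ T cells given HOCl. B16F10 is a melanoma line from C57BL/6 mice, and the T cells were taken with a kit from spleens of adult mice of that strain. HOCl, hypochlorous acid, is the oxidant that neutrophils make with myeloperoxidase. It was given at 600 µM for 5 h, and the labels name no genetic change in any group. Whether the libraries of a group stem from different cultures or animals is not in the labels. The p-values therefore speak for the spread between libraries alone, which may be technical.

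A cytosolic ribosome has a small subunit, which reads the messenger RNA, and a large subunit, which joins amino acids and lets the new chain out through a tunnel. Its proteins are needed in nearly equal numbers, and their messenger RNAs are among the most abundant in growing cells. Most of these messenger RNAs begin with a C followed by a stretch of C and U, the 5′ terminal oligopyrimidine (TOP) tract, through which mTORC1 signalling and the protein LARP1 control their translation and storage. Several of the genes have copies that are used in few tissues, such as Rpl3l in muscle and Rpl10l and Rpl39l in testis. Rps27l is a copy of Rps27 and a known target of p53.

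Rps27 and Rps27l were called in opposite directions between the cell types, so their coding sequences are shown first (without the stop codon, 5′ to 3′, from GENCODE M21 transcripts on GRCm38). Rps27 lies on the minus strand at chr3:90212522-90213651 and Rps27l on the plus strand at chr9:66946086-66949516, introns included. Capitals mark the 60 of 252 bases at which the sequences differ, with 76.2% of bases identical and no identical run longer than 11 bases.
Rps27: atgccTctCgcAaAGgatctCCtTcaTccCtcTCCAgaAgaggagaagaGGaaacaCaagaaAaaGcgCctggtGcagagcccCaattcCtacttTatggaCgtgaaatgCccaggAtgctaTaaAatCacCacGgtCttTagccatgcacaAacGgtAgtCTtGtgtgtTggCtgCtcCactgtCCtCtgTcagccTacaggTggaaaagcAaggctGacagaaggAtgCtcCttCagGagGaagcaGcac
Rps27l: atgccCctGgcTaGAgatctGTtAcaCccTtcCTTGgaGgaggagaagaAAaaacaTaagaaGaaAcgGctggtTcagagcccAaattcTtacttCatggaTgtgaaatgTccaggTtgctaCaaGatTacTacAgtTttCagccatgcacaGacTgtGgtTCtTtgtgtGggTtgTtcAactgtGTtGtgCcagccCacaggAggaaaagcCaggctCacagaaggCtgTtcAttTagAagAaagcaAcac
Any longer stretch of either coding sequence therefore differs from the other copy. Rps27 has other near copies, however: 242 of the 246 windows of 100 bases in its transcript also occur in Rps27rt, a retrotransposed copy, and 93 in Gm17241. The sources used here do not give how reads mapping to more than 1 place were counted.

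Start regions are shown for the same pair and for Rps13 and Rpl27, members that passed the test in HOCl-treated B16F10 cells. Each runs from 100 bases before to 20 bases after the annotated start (RefSeq, GRCm38.p6), with the longest run of C and T near the start in capitals. The places are chr3:90213629-90213748 (minus strand), chr9:66945986-66946105 (plus), chr7:116334171-116334290 (minus) and chr11:101442145-101442264 (plus), in the order of the lines.
Rps27: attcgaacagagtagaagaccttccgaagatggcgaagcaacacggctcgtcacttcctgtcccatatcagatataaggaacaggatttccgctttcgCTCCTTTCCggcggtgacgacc
Rps27l: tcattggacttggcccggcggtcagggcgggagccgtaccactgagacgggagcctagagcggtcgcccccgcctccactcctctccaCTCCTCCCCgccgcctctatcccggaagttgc
Rps13: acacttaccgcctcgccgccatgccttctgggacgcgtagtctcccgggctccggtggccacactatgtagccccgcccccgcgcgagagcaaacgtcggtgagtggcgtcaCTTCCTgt
Rpl27: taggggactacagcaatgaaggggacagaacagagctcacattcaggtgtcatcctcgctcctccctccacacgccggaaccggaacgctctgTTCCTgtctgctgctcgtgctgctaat
The table of RefSeq promoters held 61 of the 81 genes with 73 windows, and 32851 windows in all. A run of at least 8 C or T between 20 bases before and 30 bases after the start was found in 47.9% of the members' windows and in 18.9% of all windows. The start itself was a C followed by 4 of C or T in 19.2% of the members' windows and 2.51% of all. In the whole window of 300 bases, on either strand, CCGGAAG (the core of ETS factor motifs) was found in 35.6% against 8.86%. AAGATGGC, the core of the YY1 motif, was found in 10.96% against 2.75%, and GGGCGG, the GC box, in 58.9% against 35.7%. TATAAA was found in 8.22% against 13.6%. These are letters in a window and not sites of binding, and overlaps between motifs were not removed.

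Depth was 45.9 to 61.3 M gene counts in B16F10. The T cell libraries held 49.9 and 52.1 M without treatment and 12.8 M with HOCl. Untreated B16F10 library 1 was the deepest, with a count for 25907 genes against 22895 to 24335 in the other B16F10 libraries. Mitochondrially encoded transcripts made up 37.4% of the T cell HOCl library, 1.55% and 2.11% of the untreated T cell libraries and at most 0.711% of a B16F10 library. Summed melanocyte markers (8 genes) were 24584 to 25652 counts per M (CPM) in B16F10. They were 103 and 25.9 CPM in untreated T cells, and 6861 CPM where T cells had been given HOCl. Summed T cell markers (10 genes) were 4552 and 4594 CPM in untreated T cells and 628 CPM with HOCl. They were 5.51 to 7.69 CPM in the B16F10 libraries other than HOCl library 3, which had 40.1 CPM. The 6 B cell markers summed to 1262 and 2361 CPM in untreated T cell libraries 1 and 2, of which Ighm alone made up 1242 and 2332 CPM. All CPM values are per M of a library's gene counts.

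Ribosomal protein genes took 5.18%, 4.36% and 4.32% of gene counts in the untreated B16F10 libraries. The HOCl libraries had 4.39%, 4.32% and 4.20%. Untreated library 1 was above the other 5, and untreated libraries 2 and 3 fell among the HOCl libraries. The means were 4.62% ± 0.487 (SD, n = 3) untreated and 4.31% ± 0.0981 (SD, n = 3) with HOCl, a difference of -0.316 percentage points (exact two-sided permutation test, p = 0.5, where 3 against 3 cannot go below 0.1). Counting error was small beside this spread: the 95% Wilson interval of the highest B16F10 share was 5.18 to 5.19%.

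**Figure D1:**
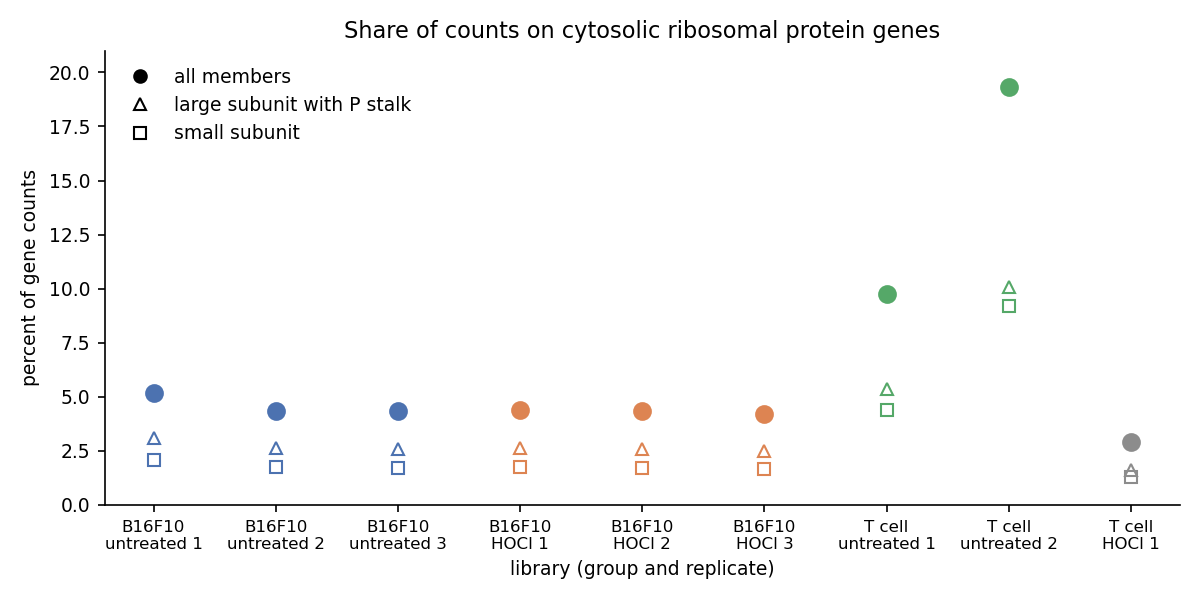
Percent of gene counts on ribosomal protein genes in each of the 9 libraries, with all 81 members as filled circles, large subunit members as triangles and small subunit members as squares. The B16F10 libraries lie between 4.20% and 5.18%, the untreated T cell libraries at 9.74% and 19.3%, and the T cell HOCl library at 2.92%.

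The subunits moved together in B16F10. Counts on large subunit members over counts on small subunit members gave 1.47, 1.52 and 1.52 in untreated libraries and 1.51, 1.51 and 1.49 with HOCl. The groups overlapped, with a difference of 0.00401 in the mean ratio (exact permutation test, p = 1.0).

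In each B16F10 library 75 of the 81 members stood above 100 CPM and 5 below 10 CPM. Per kb of transcript, the highest was Rplp1, an acidic protein of the P stalk that recruits elongation factors, with 3164, 2479 and 2547 CPM per kb in untreated libraries and 2527, 2560 and 2395 CPM per kb with HOCl. At the low end stood the tissue-restricted copies. Rpl39l had no count in any of the 6 libraries, Rpl10l had 0.0326 CPM in untreated library 1 and no count in the other 5, and Rpl3l ran from 0 to 0.152 CPM. These 3 did not pass the filter on low counts, so 78 members were tested.

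Of other low members, Rpl24, Rpl13a and Rps10 share 71.5%, 59.3% and 53.5% of their transcript with other genes annotated on the same strand. Rpl24 was at 0.701 to 1.0001 CPM and Rps10 at 1.95 to 2.96 CPM in the B16F10 libraries, and Rpl13a at 48.8 to 67.2 CPM. Their annotated partners Gm28037, Gm45713 and RPS10-NUDT3 had no count in any library. The part of the shared sequence in these levels was not tested.

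In HOCl-treated B16F10 cells, 4 of the 78 tested members fell and none rose: Rps27l, Rps13, Rps29 and Rpl27. Over all 16082 genes tested, 13.5% were lower and 14.7% higher by the same rule, which is an adjusted p (Benjamini-Hochberg) under 0.05 in the quasi-likelihood test of edgeR. In this fit the members' share of lower calls is below the background, which does not hold for other tests given below. The fitted log2 fold change was negative in 78 of 78 tested members (77 with library totals in place of TMM scaling), from -0.38 to -0.02, with a median of -0.13, against a median of -0.01 over all genes tested. At an unadjusted p under 0.05 there were 21 of the 78 members, all lower. The 6294 of the 16082 genes tested that met this rule count both directions, so the shares are not comparable. CPM ranges of the groups did not overlap in 16 members, all lower with HOCl, where 18.4% of all tested genes were lower and 25.2% higher by this rule.

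The size of the common fall, and its presence in all tested members, depended on untreated library 1. Set against the mean of the untreated libraries, the median member stood at 0.17 (log2 scale) in that library, -0.09 and -0.10 in untreated libraries 2 and 3, and -0.08, -0.10 and -0.15 in HOCl libraries 1 to 3. Without untreated library 1, the median log2 fold change of members was -0.04, 66 were negative and 12 positive, and 5 were called lower (background 15.9%). Those were the same 4 and Rpl39.

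**Figure D2:**
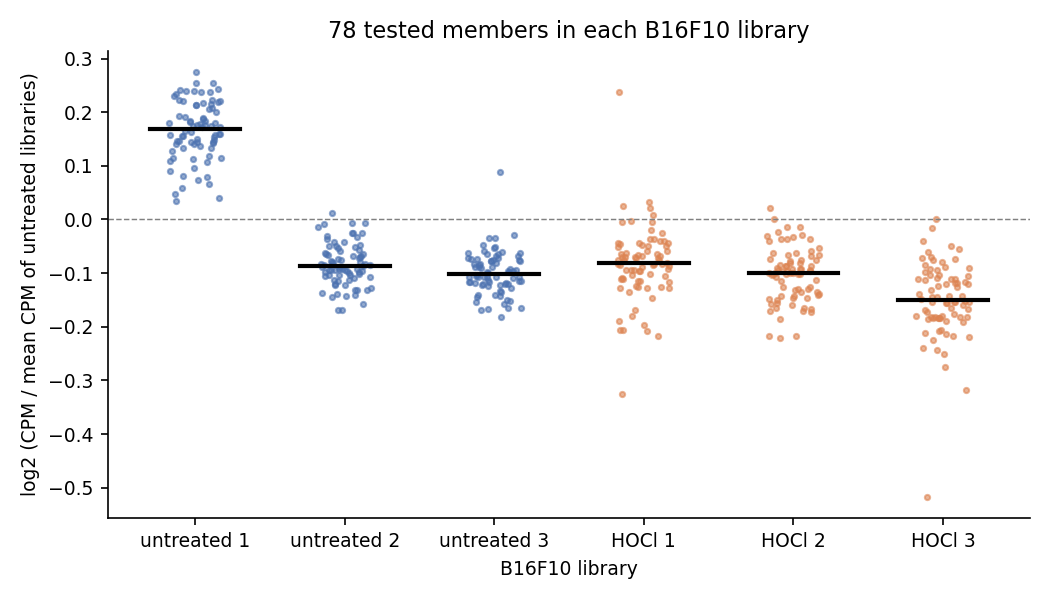
Log2 ratio of each tested member's CPM to the mean of the untreated libraries (vertical axis) in the 6 B16F10 libraries, with 1 point per member and a bar at the median. The points of untreated library 1 lie above 0 with a median of 0.17, and those of untreated libraries 2 and 3 overlap those of the HOCl libraries.

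Rps27l, the copy of Rps27, stood at 259, 216 and 206 CPM in untreated libraries and at 197, 202 and 182 CPM with HOCl. Each HOCl library was below each untreated one. Its log2 fold change was -0.26 ± 0.079 (SE), a ratio of 0.837, with an adjusted p of 0.0311 in edgeR's quasi-likelihood test.

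Rps13 makes a small subunit protein near the contact with the large subunit. It had 373, 310 and 301 CPM in untreated libraries and 288, 291 and 278 CPM with HOCl, again with no overlap. The log2 fold change was -0.23 ± 0.072 (SE), with an adjusted p of 0.0341 (edgeR).

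Rps29, a zinc-binding protein of the small subunit head, had 337, 285 and 276 CPM against 261, 273 and 259 CPM with HOCl. The groups lay close but did not overlap. Its log2 fold change was -0.21 ± 0.069 (SE), with an adjusted p of 0.0416 (edgeR).

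Rpl27, a large subunit protein, had 613, 578 and 574 CPM against 555, 538 and 518 CPM with HOCl. The gap between the groups was again small. Its log2 fold change was -0.16 ± 0.049 (SE), with an adjusted p of 0.0284 (edgeR).

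None of the 4 falls exceeded 0.26 on the log2 scale. All 4 calls were lost when any 1 HOCl library was left out, with adjusted p between 0.0521 and 0.145, and Rpl27 also lost its call without untreated library 3, at 0.0564. The number of members called lower ranged with the test. It was 12 of 78 in DESeq2's Wald test (background 15.5%) and 34 of 80 in edgeR with no filter on low counts (background 7.21%). With library totals in place of TMM scaling it was 1 (background 11.2%). It was 0 when the T cell libraries shared the fit, where only 0.201% of all 18900 genes tested were lower. In the authors' deposited table for B16F10, 15 members had an adjusted p under 0.05 with a negative log2 fold change and 0 with a positive one, where 14.7% of its genes with an adjusted p were negative calls. The members' share of lower calls was thus above the background with no filter and in the authors' deposited table. The same held with the replicate number as a block (25 of 78, background 16%). The share was near the background in DESeq2's test and below it in the main fit and with library totals. Without untreated library 2 it was 10 of 78 (background 11.4%) and without untreated library 3 it was 9 of 78 (background 10.7%), both near the background. The authors' deposited table names its groups by number only, so its sign is as deposited.

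**Figure D3:**
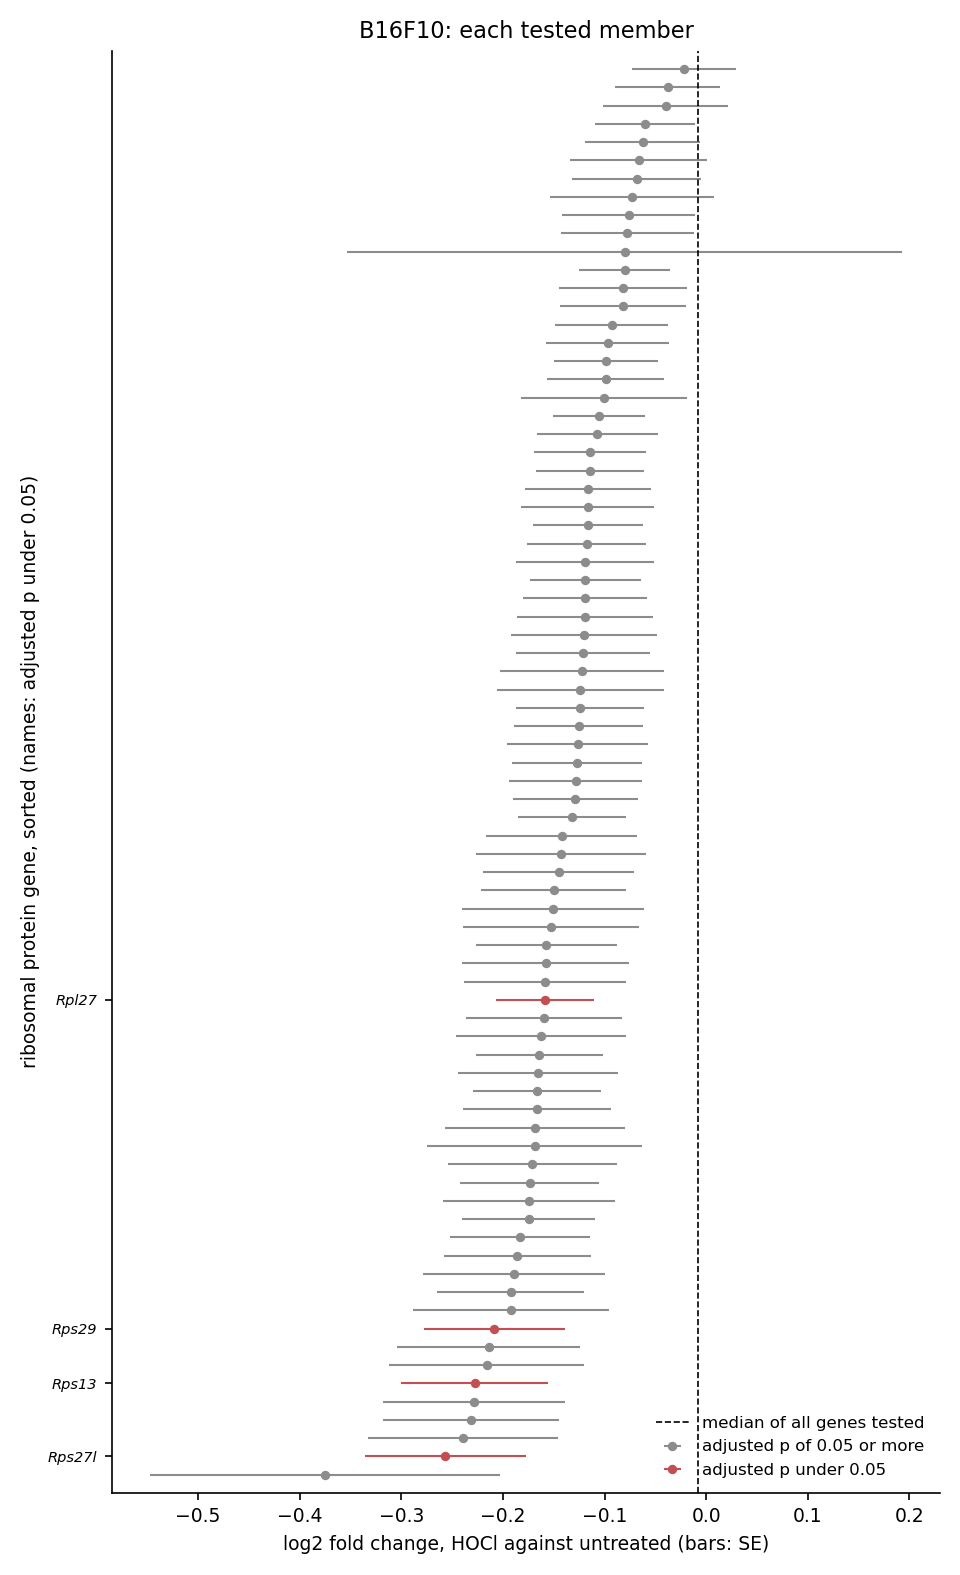
Log2 fold change of HOCl against untreated B16F10 for the 78 tested members, sorted, with bars of 1 SE; red points, named on the axis, have an adjusted p under 0.05, and the dashed line marks the median of all genes tested. All points lie below 0, between -0.38 and -0.02, and 4 are red.

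The role groups of members were not tested against each other in B16F10. Of the 4 members called lower, 3 are of the small subunit and 1 of the large. Of the P stalk, Rplp0 had 1942, 1648 and 1680 CPM untreated and 1786, 1740 and 1698 CPM with HOCl, so that the groups overlapped (log2 fold change -0.04). Rplp1 and Rplp2 had log2 fold changes of -0.16 and -0.17 and did not pass the test. Rpl5 and Rpl11 carry 5S ribosomal RNA into the large subunit and can bind MDM2, which frees p53. Rpl5 had 635, 535 and 520 CPM untreated and 537, 520 and 530 CPM with HOCl, and Rpl11 had 648, 551 and 543 CPM against 548, 527 and 499 CPM. For both, untreated library 1 was the highest of the 6.

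Fau and Rps27a are made as fusions with a ubiquitin-like protein and with ubiquitin. Their log2 fold changes were -0.07 and -0.21, neither past the threshold. Rps6, the target of S6 kinases below mTORC1, had a log2 fold change of -0.12, and Rps19, often mutated in Diamond-Blackfan anaemia, also -0.12. Rpsa, which is known too as the 67 kDa laminin receptor precursor, stood at -0.12. Among the 10 members listed at the peptide exit tunnel the median was -0.15, and among the 8 of the decoding centre and messenger RNA path -0.16. Rpl39 of the exit tunnel had 414, 327 and 309 CPM untreated and 311, 301 and 294 CPM with HOCl, a log2 fold change of -0.24 that did not pass the test. The largest fitted fall was that of Rps10 (-0.38 ± 0.17 SE, adjusted p 0.128 in edgeR), at 2 to 3 CPM and with shared sequence as given above. Rpl3, Rpl10, Rpl22 and Rpl41 ranged from -0.11 to -0.19, and Rpl13a was at -0.22.

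Scaled to the sum of the members in place of TMM, so that a value is a change in a member's share of them, 0 members were called in B16F10 in either direction (edgeR's quasi-likelihood test, background 9.59% higher and 2.38% lower). At an unadjusted p under 0.05 there were also 0. The proportions of the members to each other were thus not shown to change.

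Untreated T cells held more of their counts on ribosomal protein genes than untreated B16F10 cells, and the 2 T cell libraries differed widely. The members took 9.74% of counts in T cell library 1 and 19.3% in T cell library 2, both above all 6 B16F10 libraries. The mean was 14.5% ± 6.77 (SD, n = 2) against 4.62% ± 0.487 (SD, n = 3), a difference of 9.90 percentage points (exact permutation test, p = 0.2, the smallest that 2 against 3 allows). In bulk RNA a different mix of cells and a different amount of RNA per cell cannot be told apart. The small subunit took a larger part: counts on the large over the small subunit were 1.22 and 1.09 in T cells, below 1.47 to 1.52 in the 6 B16F10 libraries.

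All 76 members with at least 10 CPM in T cell library 1 were higher in T cell library 2, by 1.05 to 3.66 times with a median of 1.93. The like share over all genes was not computed, so this count is not read as particular to the members. Rps14 differed most between the libraries, at 1900 and 6953 CPM, followed by Fau at 1229 and 3241 CPM. Rps27l differed least of the 76, at 16.6 and 17.4 CPM. Below 10 CPM, Rps10 (7.99 and 5.55 CPM) and Rpl24 (2.26 and 2.07 CPM) were lower in library 2. Rpl39l (0.401 and 0.461 CPM) was higher there, and Rpl3l and Rpl10l had at most 0.0401 CPM. Members were 44 of the 100 genes with most counts in library 1 and 62 in library 2, against 11 to 16 in B16F10. The library with the higher share also had the higher sum of B cell markers, mostly Ighm, as given above, and the labels give these libraries sample codes of different form without saying what that marks. The part of these in the difference was not tested.

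In the test per gene, 76 of the 79 tested members were higher in untreated T cells than in untreated B16F10 and 1 was lower, with a median log2 fold change of 1.81 (0.02 over all 18352 genes tested). By the same rule 35.4% of all genes were higher and 35.8% lower (quasi-likelihood test of edgeR, Benjamini-Hochberg). Rpl13a and Rpl32 did not pass. Ranges did not overlap in 73 members that were higher and 1 that was lower, against 35.8% and 46.0% of all genes. Rpl39l, with no count in B16F10, passed the filter only through the T cell libraries. It could thus only come out higher, and its place in these counts is no support. With a stricter filter (1 CPM and 50 counts on average), which left it out, 75 of 78 members were higher (background 38.8%). The comparison uses the same untreated B16F10 libraries as the one with HOCl. With library totals in place of TMM, which lowered the median of all genes to -0.22, 70 members were higher (background 30.8%), and leaving out any 1 library gave 67 to 78.

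**Figure D4:**
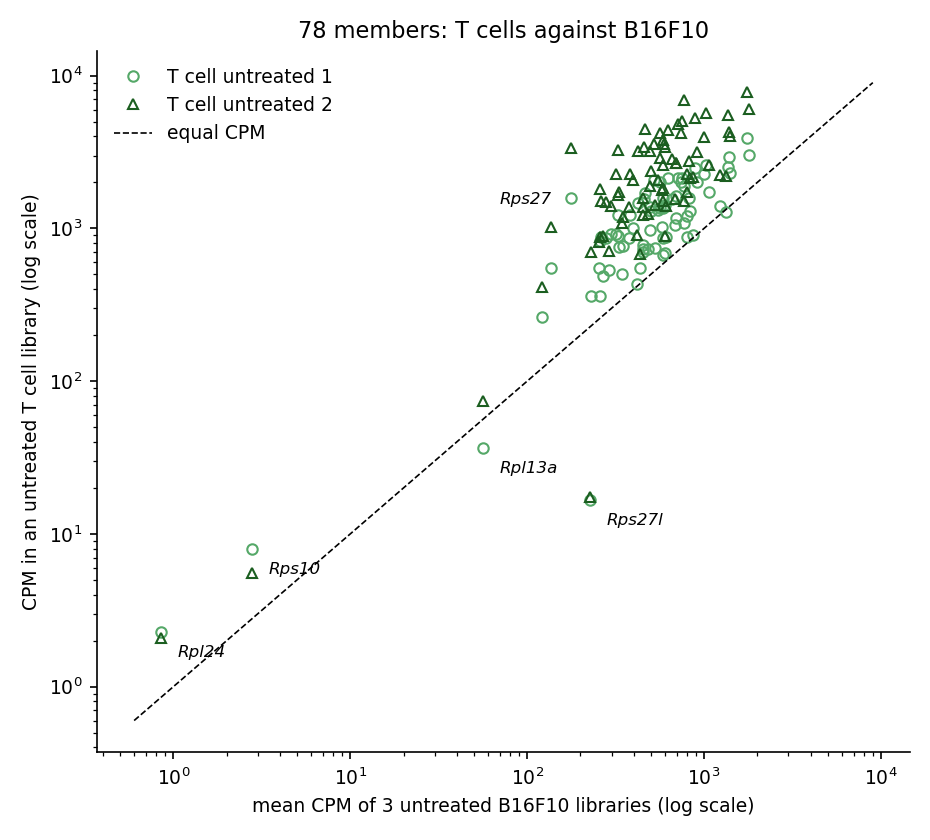
CPM of 78 members in untreated T cell library 1 (circles) and library 2 (triangles) against the mean CPM of the 3 untreated B16F10 libraries, both axes logarithmic, with a dashed line at equal CPM. Most members lie above the line and higher in library 2, Rps27 lies highest above it and Rps27l far below it at 16.6 and 17.4 CPM.

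By subunit, the median log2 fold change was 2.25 over the 32 small subunit members and 1.63 over the 47 tested large subunit members. Rplp0, the anchor of the P stalk, had 3912 and 7830 CPM in T cells, a log2 fold change of 2.01 ± 0.37 (SE). Rplp1 had 2533 and 5495 CPM, and per kb of transcript it was again the highest member in both libraries. Of the 5S RNA carriers, Rpl5 had 2022 and 4220 CPM (log2 fold change 2.74) and Rpl11 1015 and 1772 CPM (1.53). Rps6 had 1362 and 2619 CPM (2.04), and Rpl17, a protein at the mouth of the exit tunnel, 1712 and 4458 CPM (3.02). Each of these lay above all 3 untreated B16F10 libraries in both T cell libraries.

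Other members differed less. Rpl41, the shortest ribosomal protein, had 909 and 2154 CPM against 977, 808 and 809 CPM in B16F10, so that the groups overlapped (log2 fold change 1.10, adjusted p 0.0483 in edgeR). Rpl10, mutated in some T cell leukaemias, had 1081 and 1504 CPM (1.00), and Rpl22, needed for the development of alpha beta T cells, 491 and 897 CPM (1.63). Rpl32 had 1272 and 2195 CPM against 1468, 1268 and 1249 CPM, and was not called (log2 fold change 0.65 ± 0.31 SE). Rpl13a had 36.5 and 74.0 CPM against 67.2, 50.5 and 51.3 CPM: 1 T cell library lay below and the other above the B16F10 range. Of the testis copies, Rpl39l was at 0.401 and 0.461 CPM in T cells (20 and 24 counts) and had no count in B16F10. With B16F10 set at a floor of 3 counts per library, Rpl39l was 7.29-fold higher, a value that leaves out counting error in T cells. Rpl39 stood at 763 and 1187 CPM in T cells. With Rpl39l set at that fold the median of the members remained 1.81.

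Relative to the members' own sum, 18 of 79 were called: 9 higher and 9 lower in T cells (background 11.1% higher and 53.1% lower). Among the higher ones were Rps27 (log2 change in share 2.14 ± 0.29 SE), Fau (1.06), Rpl17 (1.02), Rpl5 (0.81), Rpl36a and Rps23. Rpl39l was counted as higher too, though it passed the filter only through the T cell libraries, so its call is no support. The lower ones were Rps27l (-5.24 ± 0.51 SE), Rpl13a (-1.68), Rpl32 (-1.24), Rps26 (-1.16), Rps2 (-1.03), Rpl29, Rpl15, Rpl7a and Rpl41. The share of members called higher is near the background and that called lower is below it.

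Rps27 and Rps27l, whose sequences are printed above, moved in opposite directions between the cell types. Rps27 had 196, 169 and 163 CPM in untreated B16F10 and 1577 and 3343 CPM in untreated T cells. Its log2 fold change was 4.08 ± 0.39 (SE), 16.9-fold, with an adjusted p of 0.000277 in edgeR's quasi-likelihood test. It was the largest fitted rise among members with counts in B16F10.

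Rps27l went from 259, 216 and 206 CPM in untreated B16F10 to 16.6 and 17.4 CPM in T cells. This was the only member called lower, with a log2 fold change of -3.49 ± 0.20 (SE), a ratio of 0.089, and an adjusted p of 3.51e-05 in edgeR. In every setting and with any 1 library left out, it remained the one called lower, except that Rpl13a joined it without T cell library 2.

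The ratio of Rps27l to Rps27 was 1.32, 1.28 and 1.26 in untreated B16F10 and 0.0105 and 0.00521 in untreated T cells (exact permutation test on the log2 ratio, p = 0.2, the smallest possible). These are ratios of counts, and the transcript of Rps27l (499 bases) is longer than that of Rps27 (345 bases). Per kb of transcript Rps27l was below Rps27 in both cell types: it had 519, 433 and 413 CPM per kb in untreated B16F10 against 568, 489 and 473 CPM per kb of Rps27. In untreated T cells it had 33.2 and 34.9 CPM per kb against 4570 and 9690 CPM per kb of Rps27, the second highest member there. Rps27rt, whose sequence nearly repeats that of Rps27, was at 1.44 to 2.65 CPM in untreated B16F10 and at 21.9 and 48.3 CPM in T cells. Its ratio to Rps27 overlapped between the cell types (exact permutation test, p = 0.6). With HOCl in B16F10 the ratio of Rps27l to Rps27 was 1.19, 1.19 and 1.03, below all 3 untreated libraries (exact permutation test on the log2 ratio, p = 0.1, the smallest that 3 against 3 allows). The lowest was HOCl library 3, the one with 40.1 CPM of T cell markers. The difference in mean log2 ratio was -0.18, and Rps27 itself had a log2 fold change of -0.08 that did not pass the test.

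**Figure D5:**
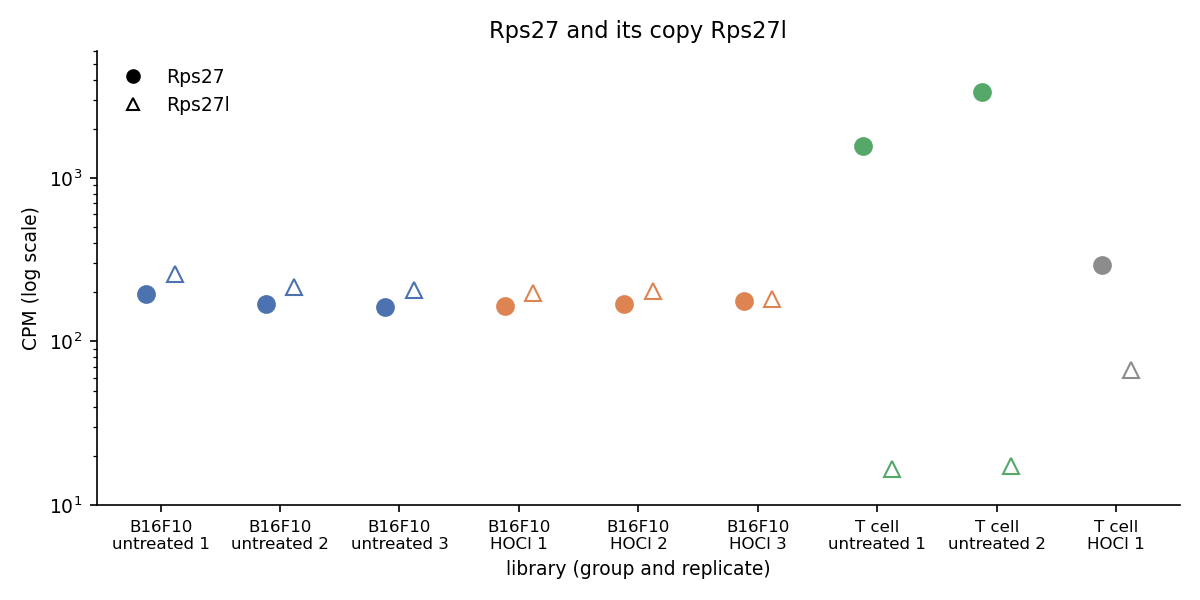
CPM (log axis) of Rps27 (filled circles) and Rps27l (open triangles) in the 9 libraries. In CPM, not corrected for transcript length, Rps27l is the higher in all 6 B16F10 libraries and the lower in the 3 T cell libraries, with 16.6 and 17.4 CPM against 1577 and 3343 CPM of Rps27 in untreated T cells.

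Rpl22 and its copy Rpl22l1, which the symbol rule leaves out, gave a smaller contrast. Rpl22l1 had 41.5, 39.7 and 36.9 CPM in untreated B16F10, 33.9, 32.6 and 32.0 CPM with HOCl, and 74.5 and 165 CPM in T cells. It fell with HOCl (log2 fold change -0.29 ± 0.063 SE, adjusted p 0.00506 in edgeR). Rpl22l1 was the only 1 of 7 listed ribosomal protein genes outside the rule that fell, and none rose. Over all genes tested, 13.5% were lower and 14.7% higher. The log2 ratio of Rpl22l1 to Rpl22 was -2.89, -2.67 and -2.75 untreated and -2.93, -2.91 and -2.92 with HOCl, with no overlap (exact permutation test, p = 0.1). In T cells it was -2.72 and -2.45 and overlapped the untreated B16F10 libraries. Between untreated T cells and untreated B16F10, 4 of the 7 genes outside the rule were higher and 1 lower (background 35.4% higher and 35.8% lower). Among the higher ones were Rps3a1, a core part of the small subunit (2.01 on the log2 scale), and Rps27rt (4.36).

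The library labelled T cell HOCl has no replicate and was not tested. Its members took 2.92% of counts (95% Wilson interval 2.91 to 2.93), or 4.67% of the counts that were not mitochondrially encoded, against 9.74% and 19.3% of all counts in untreated T cells. Of the 79 members tested between the untreated cell types, 75 were below both untreated T cell libraries and 4 above both, where 35.4% of the 18352 genes tested there were below both and 51.9% above both (CPM, no test). Rps27 was at 295 CPM and Rps27l at 66.8 CPM, a ratio of 0.226 that lay between those of untreated T cells and of B16F10. That library also held melanocyte markers at 6861 CPM, as given above. Their part in these values was not tested.

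Other parts of the translation machinery were read from lists of genes that the symbol rule does not cover. Over all genes tested with HOCl in B16F10, 14.7% were higher and 13.5% lower, the background for these lists. In HOCl-treated B16F10 cells 0 of 12 elongation and termination factors rose and 3 fell: Eef1d (log2 fold change -0.24), Eef1g (-0.18), both of the complex that reloads eEF1A, and Eif5a (-0.15), which helps the ribosome through difficult peptides. Of 32 initiation factors 2 rose and 1 fell. Eif4ebp1, whose protein blocks cap-dependent initiation when mTORC1 is off, had 240, 212 and 216 CPM untreated and 306, 300.0 and 287 CPM with HOCl (0.39), Eif5 rose by 0.34, and Eif3l fell by 0.15. Of 12 other transcripts known to carry a TOP tract 0 rose and 3 fell: Vim (-0.34), Npm1 (-0.24) and Nap1l1 (-0.17). The median of that list was -0.10, beside -0.13 for the ribosomal protein genes. Rack1, Eef1a1 and Tpt1, TOP transcripts too, stood at -0.07, 0.02 and 0.07 and did not pass the test.

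Of 19 tested genes listed as chaperones and import factors for ribosomal proteins 2 rose and 4 fell with HOCl (background 14.7% higher and 13.5% lower). Aar2, which is in the list but is not an established chaperone or import factor of ribosomal proteins, rose by 0.36. Zfp622, a maturation factor of the large subunit, rose by 0.22. Ipo4 and Ipo5, importins that carry ribosomal proteins and histones into the nucleus, fell by 0.26 and 0.17. Of 11 genes of RNA polymerase I, which transcribes ribosomal RNA, Taf1c rose (0.43) and Taf1d, Polr1d and Polr1c fell (-0.31, -0.25 and -0.22).

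Of 14 genes of ribosome rescue, TOP binding and the link to mTORC1, 2 rose and 0 fell with HOCl (background 14.7% higher and 13.5% lower). Ddit4, a brake on mTORC1, had 73.5, 72.3 and 74.5 CPM untreated and 145, 143 and 143 CPM with HOCl (log2 fold change 0.94 ± 0.046 SE). Sesn2, a leucine sensor that restrains mTORC1, had 58.0, 59.0 and 58.7 CPM against 110, 103 and 112 CPM (0.86 ± 0.050 SE). Larp1, which binds TOP tracts, stood at 0.04 and Mtor at 0.05, neither past the threshold. The groups of Ddit4 and Sesn2 lay far apart where those of the ribosomal protein genes nearly touched or overlapped.

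In untreated T cells against untreated B16F10, where 35.4% of all genes were higher and 35.8% lower, the counts of these lists were as follows, with no test between lists. Of 32 initiation factors 9 were higher and 9 lower, with a median log2 fold change of -0.11. Eif4ebp1 was lower by 3.21 on the log2 scale, at 14.7 and 25.4 CPM. Of 12 elongation and termination factors 3 were higher, among them Eef1a1, which brings transfer RNAs to the ribosome (1.40), and 5 lower, among them Eif5a (-1.60). Of 12 other TOP transcripts 6 were higher and 2 lower, with Vim, a filament protein of mesenchymal cells, at -4.87. Of 19 genes listed as chaperones and import factors 4 were higher and 11 lower, such as Ipo5 at -2.36. Of 11 genes of RNA polymerase I 5 were higher and 3 lower, and of 14 of rescue and the mTORC1 link 1 was higher and 6 lower.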

How the data were processed

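Libraries were grouped by their titles. The deposited values are raw counts of reads per gene, which the authors made on mm10. The submitters' processing notes name STAR 2.7.1a, featureCounts 1.6.0, FastQC 0.11.8 and, for their tables, DESeq2 1.22.2. The sources used here do not give the strand setting or the treatment of reads that map more than once. In transcripts of GENCODE M21, a median of 49.4% of a member's 50-base windows also occurred in other genes, so levels of members with near copies are uncertain. From the authors' deposited table the log2 fold changes and adjusted p-values were only set beside the tests made here.

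Counts of all genes were tested with edgeR 4.0.16 (R 4.3.3): filterByExpr, TMM scaling, a robust quasi-likelihood F test and Benjamini-Hochberg adjustment over all genes tested, at 0.05. Each comparison used its own libraries (3 against 3 and 2 against 3). SE is the log2 fold change over the square root of F, and folds are on the TMM scale, CPM on library totals. The procedure was run on simulated counts drawn independently per gene with a fixed spread. These held no shift of many genes in a single library, so the run does not bear on the shifts described here. Shares were compared by exact two-sided permutation. Intervals and floors (3 counts) cover counting error only. Levels per kb used 1 representative transcript per gene.

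Members, lists and named genes (those past the threshold, the largest changes, a fixed set of members with known roles, and up to 2 per direction from each list) were chosen with earlier results of these data known. Genes beyond that rule (Rpl32 and those named for their share of the members' sum, and, in B16F10, Eif5a, Nap1l1, Polr1c, Rack1, Eef1a1, Tpt1, Larp1 and Mtor) were chosen after their values were seen. Values of a few single genes are not reported here. Alternatives were DESeq2 size factors, library totals, TMM without the members, testing without a filter, a stricter filter (1 CPM and 50 counts on average), DESeq2 1.42.0, 8 libraries in 1 fit, a replicate block, each replicate left out, and other definitions of the share.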

Additional observations from a re-analysis of the deposited data

Results flagged for a closer look

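In the library labelled T cell HOCl, which no test used, 6 of the 81 members stood above both untreated T cell libraries, while the other 75 stood below both. Of all 18352 genes tested between the untreated cell types, 51.9% stood above both and 35.4% below both. Rps27l was at 66.8 CPM against at most 17.4 CPM in untreated T cells. Rps10 was at 19.4 CPM against 7.99 CPM, and Rpl24 at 2.88 CPM against 2.26 CPM. The muscle copy Rpl3l was at 7.47 CPM (96 counts) against 0.0401 CPM. The testis copies Rpl39l and Rpl10l were at 2.18 CPM (28 counts) and 0.856 CPM (11 counts), against 0.461 and 0.0401 CPM. This library had a count for 44225 genes, against 22855 to 25907 in the other 8, and pseudogenes named after ribosomal proteins had counts equal to 2.57% of those of the members, against 0.836 to 0.93% elsewhere. The part of these in the 6 values was not tested.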

How the results depend on the processing

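In B16F10, 4 members were called lower with TMM, with DESeq2 size factors, with TMM without the members and with the stricter filter. The count was 1 with library totals, 34 with no filter and 12 in DESeq2's Wald test. It was 25 with the replicate number as a block (16% of all genes lower). With 8 libraries in 1 fit it was 0, where 67 of all genes were called and 0.201% were lower. Leaving a replicate out gave 0 to 10 (8.55 to 15.9% of all genes). The cause was not tested. All genes called ranged from 3015 to 5453 with a replicate left out. The median log2 fold change of members stayed negative, -0.17 to -0.04 with a replicate left out. With a replicate left out, Rplp0 ranged from -0.083 to 0.043, Rpsa from -0.18 to 0.0045, Fau from -0.13 to 0.053 and Rps27 from -0.12 to 0.014, each positive without untreated replicate 1 only. The difference in share ranged from -0.466 to -0.0357 percentage points with a replicate left out.

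Between T cells and B16F10, the count of higher members was 70 to 77 in the settings other than the block (58, with 26% of all genes higher) and left-out replicates (67 to 78, with 31 to 38.8% of all genes higher), with 1 lower, or 2 (Rpl13a added) without T cell replicate 2. All genes called ranged from 10932 to 15272, the median from 1.29 to 2.22 and the difference in share from 5.11 to 14.7 points with a replicate left out. Rpl13a turned negative with library totals (-0.028), and ranged from -0.49 (without T cell replicate 2) to 0.68 with a replicate left out. Same-numbered libraries did not deviate together: correlations over genes were 0.0352, -0.0034 and 0.0016 in B16F10, so the replicate block was not read as a pairing, and calls under it are given as counts only.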
